A study of Mus musculus with 7 samples.

Results

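The genes for the proteins of the mitochondrial ribosome were examined for changes in promoter accessibility with age in mouse liver. The members were the protein-coding genes of GENCODE M21 whose symbol starts with Mrpl or Mrps followed by a digit, and a gene's promoter was the consensus ATAC-seq region lying, at least in part, within 200 bp of the TSS of any of its transcripts. All 78 such genes had a promoter region, compared with 13037 of all 21951 protein-coding genes. Of the 78 genes, 49 are named for the large and 29 for the small subunit. They lay in 77 distinct regions, because Mrps11 and Mrpl46 share 1. Where several regions overlapped the promoter of a gene, which held for 6 of the 78, the region with the highest mean accessibility was taken.

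ATAC-seq places sequencing adapters with a transposase where DNA is exposed, and the deposited raw counts give the reads of each library in 55680 consensus regions. The libraries came from liver tissue of male C57BL/6N mice that received a standard diet, 3 of them from young mice (3 months) and 4 from aged mice (18 months). The sources used here give no further treatment or allele for either age. The aged samples came from 3 animals, of which 1 was sampled in separate lobules, and which samples share an animal is not stated, so p-values measure the spread between these samples and not strictly between animals. Because whole tissue was used, fewer cells of a type and less accessible DNA per cell cannot be told apart.

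Mitochondrial ribosomes translate the few proteins that are encoded by mitochondrial DNA, all of them core subunits of the respiratory chain and ATP synthase. Their rRNAs come from mitochondrial DNA, while every one of their proteins is encoded in the nucleus, made in the cytosol and imported. The small subunit decodes the mRNA and the large subunit joins the amino acids. Some of the proteins have counterparts in bacterial ribosomes and the others were gained by mitochondria. Nuclear genes of this kind often carry promoter sites for NRF1, for the ETS family factor GABP and for YY1, factors that are known to drive nuclear genes of mitochondrial function.

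The total counts in regions ran from 4474652 to 25461110 per library, and the member promoters held 0.273% to 0.293% of them in young and 0.279% to 0.299% in aged samples. A member's region held between 34 and 2759 counts in a library. The pairs of libraries of the same age differed by more than sampling noise, with a chi-square per degree of freedom of 2.398 to 6.07 over 9 pairs. Of the markers of liver cell types looked up, all 6 hepatocyte genes had a promoter region, whereas 1 of 4 Kupffer cell, 2 of 4 endothelial, 2 of 4 stellate cell, 2 of 4 cholangiocyte and 0 of 4 lymphocyte genes had one, and so did 0 of 3 genes of neurons and muscle. The hepatocyte gene Apoa1 rose with age (log2 fold change 0.53, edgeR adjusted p = 0.0331), and no marker of the other cell types passed the test. With offsets fitted on mean abundance, Apoa1 had 0.077 (adjusted p = 0.770). Of the hepatocyte markers 5 of 6 were above 0, whereas 6 of the 7 markers of other liver cell types with a region were below 0, among them Epcam (-0.77, adjusted p = 0.116), Clec4f (-0.66, adjusted p = 0.314) and Reln (-0.64, adjusted p = 0.0586). The summed CPM was 525 to 591 in young and 659 to 772 in aged samples for the hepatocyte markers, and 117 to 127 and 90.02 to 137 for the others. Relative to promoters of the same strength, 3 of the 6 hepatocyte and 6 of the 7 other markers were below the median. Their part in the changes of the members was not tested.

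The promoter sequences of the genes that the results turn on are shown first. They are those of the genes that passed the test (Mrpl50, Mrpl51 and Mrpl53), of the small subunit genes with the largest log2 fold changes (Mrps12 and Mrps14) and of the pair that shares a region (Mrps11 and Mrpl46). Each is given 5′ to 3′ on the strand of the gene and lies within the 100 bases before the gene's RefSeq start on GRCm38.p6, shortened where more than 30 bases of an annotated coding exon would be included. Capitals mark letters of the NRF1, ETS, YY1, Sp/KLF and CCAAT motifs searched on both strands. The sequences lie at chr4:49521084-49521183 (minus strand) for Mrpl50, chr6:125192100-125192194 (plus) for Mrpl51, chr6:83109008-83109069 (plus) for Mrpl53, chr7:28741822-28741921 (minus) for Mrps12, chr1:160195115-160195214 (plus) for Mrps14, chr7:78783060-78783130 (plus) for Mrps11 and chr7:78783090-78783148 (minus) for Mrpl46.
Mrpl50: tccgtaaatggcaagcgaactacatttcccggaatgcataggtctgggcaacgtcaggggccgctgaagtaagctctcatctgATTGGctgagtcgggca
Mrpl51: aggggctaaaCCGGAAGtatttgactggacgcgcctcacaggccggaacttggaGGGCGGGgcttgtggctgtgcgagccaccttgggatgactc
Mrpl53: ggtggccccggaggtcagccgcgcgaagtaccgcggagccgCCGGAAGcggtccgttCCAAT
Mrps12: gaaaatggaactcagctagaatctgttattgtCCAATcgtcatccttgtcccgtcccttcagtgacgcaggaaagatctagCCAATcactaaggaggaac
Mrps14: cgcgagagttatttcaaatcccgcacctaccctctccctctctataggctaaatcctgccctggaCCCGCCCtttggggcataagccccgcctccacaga
Mrps11: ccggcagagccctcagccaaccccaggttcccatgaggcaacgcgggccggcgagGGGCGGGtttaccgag
Mrpl46: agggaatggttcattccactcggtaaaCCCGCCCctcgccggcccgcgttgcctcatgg

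The promoters of Mrpl51 and Mrpl53 both held the ETS letters in this stretch, starting 90 and 59 bases before the start. The only capitals of Mrpl50 are a CCAAT box on the opposite strand, and Mrps12 holds this box at 2 places. The stretches of Mrps11 and Mrpl46 overlap on opposite strands, so that the same Sp/KLF letters are seen in both.

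To ask whether the mitoribosomal promoters changed with age, aged and young samples were compared in the fit of all regions. The promoters of 2 members became more accessible with age (Mrpl50 and Mrpl51), that of 1 became less accessible (Mrpl53), and the other 75 did not pass the test at an adjusted p under 0.05. This is 2.56% of the members up and 1.28% down. Over all protein-coding promoters 5.02% were increased and 1.49% decreased, and over all 55680 regions 2.44% were increased and 3.3% decreased. The members' shares are thus close to or below the background in either direction. Without aged replicate 1, aged replicate 3, young replicate 1 or young replicate 2, none of the 78 passed in either direction in edgeR. In these fits the share of all protein-coding promoters increased was also low, at 0.161%, 0.314%, 0.115% and 0.338%. The share decreased was 0.268%, 0.299%, 0.0690% and 0.261%. Of the members, 20 (25.6%) had an unadjusted p under 0.05 with all samples, compared with 35% of all protein-coding promoters. DESeq2 called 9 members (11.5%) increased and 1 (1.28%) decreased with all samples, and among all protein-coding promoters it called 11.9% increased and 1.6% decreased.

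The log2 fold changes of the members lay between -0.53 (Mrpl53) and 0.51 (Mrps12), with a median of 0.081 and quartiles of -0.066 and 0.25. The median of the other protein-coding promoters was 0.13. Above 0 were 52 members and below 0 were 26. Within 0.25 of 0 were 54 members (69.2%), compared with 52.6% of the other promoters and 60.5% of them at the strengths of the members. The standard errors of the members' log2 fold changes were 0.105 to 0.234, with a median of 0.140. With libraries scaled to total counts in place of TMM, the median of all regions moved from -0.035 to -0.15 and that of the members from 0.081 to -0.036, so that 31 members were above 0. Relative to all regions, the members' median was 0.117 with TMM and 0.116 with total counts.

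In log2 CPM, the counts of a region scaled to the TMM-normalized size of its library, every aged sample was above every young one at 15 members (19.2%), and every aged sample was below every young one at 2 members (2.56%), Mrpl22 and Mrpl53. At the other 61 the ages overlapped. Over all protein-coding promoters, these shares were 24% and 7.82%. The 15 members were Mrpl11, Mrpl17, Mrpl30, Mrpl34, Mrpl37, Mrpl39, Mrpl50, Mrpl51 and Mrpl54 of the large and Mrps9, Mrps12, Mrps14, Mrps16, Mrps28 and Mrps36 of the small subunit, with log2 fold changes from 0.23 to 0.51.

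**Figure D1:**
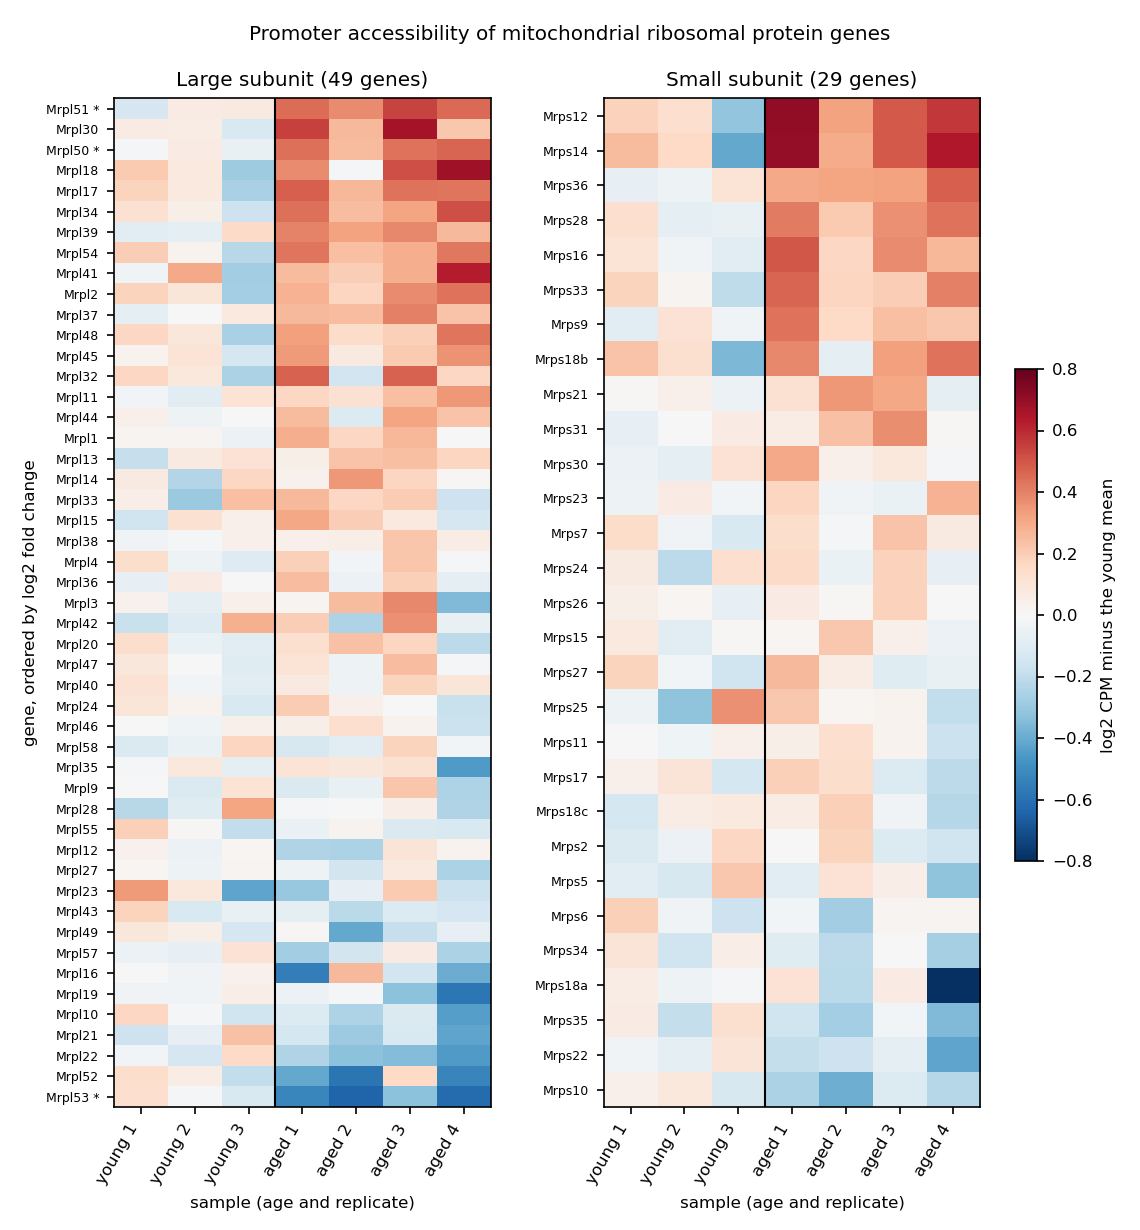
Accessibility of each member promoter (row) in each sample (column), as log2 CPM minus the mean of the 3 young samples, for 49 large and 29 small subunit genes ordered by log2 fold change; an asterisk marks an adjusted p under 0.05. Rows with every aged column redder than the young ones (15 of 78) gather at the top, and at 61 of the 78 the ages overlap.

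Mrpl51 encodes a large subunit protein without a bacterial counterpart. Its promoter region, chr6:125191365-125192856, had 52.7, 60.5 and 60.7 CPM in young and 79.0, 75.3, 84.3 and 79.3 CPM in aged samples, so that the young mean was 57.9 ± 4.56 (SD, n = 3) and the aged mean 79.5 ± 3.68 (SD, n = 4). All aged samples were higher than all young ones and the groups were far apart compared with the spread within an age. The log2 fold change was 0.46 (standard error 0.107, edgeR adjusted p = 0.0280), and 0.19 (adjusted p = 0.398) with offsets fitted on mean abundance, which remove the trend of fold change with promoter strength. The same region is the promoter of Ncapd2, a condensin subunit gene on the opposite strand.

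Mrpl50 encodes another of the proteins gained by mitochondria. Its region, chr4:49520447-49521747, had 45.3, 47.5 and 43.7 CPM in young and 61.8, 54.3, 61.6 and 62.9 CPM in aged samples (log2 fold change 0.40, standard error 0.107, edgeR adjusted p = 0.0438). The ages did not overlap, and aged replicate 2 lay below the other aged samples. With offsets fitted on mean abundance its value was 0.17 (adjusted p = 0.397). This promoter is shared with Zfp189, a zinc finger gene. The only other region within 10 kb, outside promoters, had a log2 value of 0.30 and did not pass the test (adjusted p = 0.225).

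Mrpl53, a large subunit protein of the same class, was the member that lost accessibility. Its region, chr6:83107480-83109675, had 47.3, 42.8 and 39.6 CPM in young and 30.05, 27.7, 34.3 and 28.1 CPM in aged samples, so that the young mean was 43.2 ± 3.85 (SD, n = 3) and the aged mean 30.04 ± 3.04 (SD, n = 4). Every aged sample was below every young one. The log2 fold change was -0.53 (standard error 0.123, edgeR adjusted p = 0.0264). No other protein-coding gene has its promoter in this region, but the antisense gene Ccdc142os does, and ATAC-seq reads cannot be given to a strand. The neighboring regions within 10 kb, at the promoters of Ccdc142 and Mogs, had log2 fold changes of -0.095 (adjusted p = 0.610) and -0.052 (adjusted p = 0.790), and the difference from Mrpl53 was not tested. Of the 6488 other protein-coding promoters in the stronger 5 deciles by accessibility, where Mrpl53 lies, 3 were decreased. Of 19 alternative fits with another method, scaling, filter or set of samples, 15 called Mrpl53 decreased, 11 called Mrpl51 and 6 called Mrpl50 increased.

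The largest increases among the members that did not pass the test were in the small subunit. Mrps12, which lines the decoding site, had 35.3, 34.1 and 24.8 CPM in young and 50.9, 38.8, 43.7 and 46.1 CPM in aged samples (log2 fold change 0.51, standard error 0.142, edgeR adjusted p = 0.0505). Its region, chr7:28741361-28742481, is also the promoter of Sars2, the mitochondrial seryl-tRNA synthetase gene. Mrps14, another protein with a bacterial counterpart, had 50.2, 47.0 and 31.6 CPM in young and 68.7, 51.8, 59.1 and 65.8 CPM in aged samples (log2 fold change 0.51, standard error 0.154, adjusted p = 0.0656). At both promoters young replicate 3 was lowest and the ages did not overlap. With offsets fitted on mean abundance, Mrps12 had 0.33 (adjusted p = 0.251) and Mrps14 had 0.28 (adjusted p = 0.340). Mrpl30, of the large subunit, had 27.2, 27.1 and 23.8 CPM in young and 38.0, 31.2, 41.3 and 30.2 CPM in aged samples (log2 fold change 0.42, adjusted p = 0.0824). At an adjusted p under 0.1, 11 members (14.1%) were increased and 1, Mrpl53, was decreased (1.28%), compared with 14.4% and 3.46% of all protein-coding promoters.

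**Figure D2:**
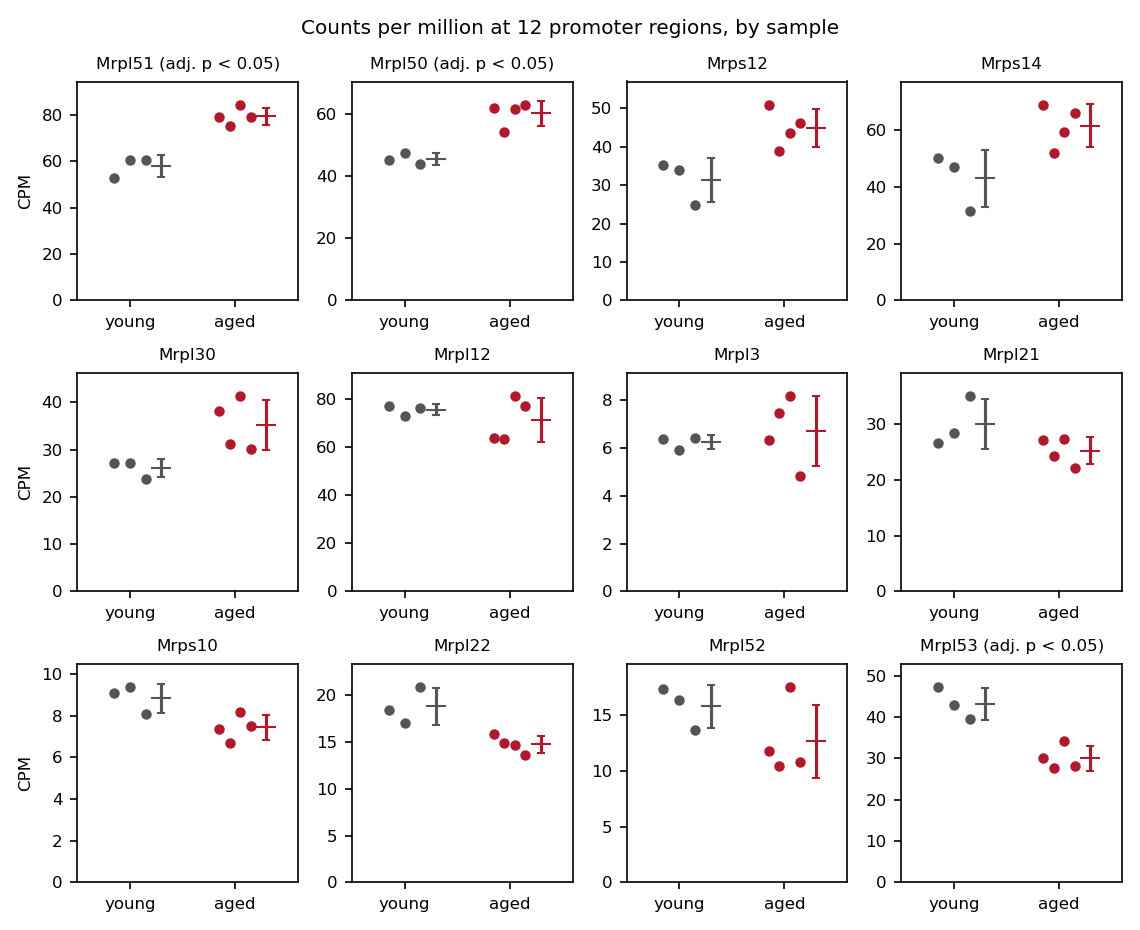
CPM in each sample (points) at 12 member promoters, with the mean and SD of each age beside the points (3 young and 4 aged samples, axes from 0). The ages are separate at Mrpl51, Mrpl50, Mrps12, Mrps14, Mrpl30, Mrpl22 and Mrpl53, and overlap at Mrpl12, Mrpl3, Mrpl21, Mrps10 and Mrpl52.

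On the other side, the lowest log2 fold changes after Mrpl53 were at weak or intermediate promoters. Mrpl22, which lines the tunnel through which the new protein leaves the ribosome, had 18.4, 17.1 and 20.9 CPM in young and 15.8, 14.9, 14.7 and 13.6 CPM in aged samples (log2 fold change -0.34, edgeR adjusted p = 0.190). Mrpl52 had 17.3, 16.3 and 13.6 CPM in young and 11.8, 10.4, 17.5 and 10.8 CPM in aged samples (log2 fold change -0.35, adjusted p = 0.296). Aged replicate 3 was the highest sample of all at Mrpl52, so the ages overlapped, whereas at Mrpl22 they did not. Mrps10 had 9.07, 9.37 and 8.06 CPM in young and 7.38, 6.67, 8.17 and 7.51 CPM in aged samples (log2 fold change -0.26, adjusted p = 0.433). Mrpl21 had 26.6, 28.4 and 35.02 CPM in young and 27.1, 24.3, 27.3 and 22.1 CPM in aged samples (log2 fold change -0.24, adjusted p = 0.308), and its value was -0.12 without young replicate 3. The ages overlapped at Mrps10 and Mrpl21, and neither passed the test.

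Several members have roles beyond the core of the ribosome, and none of those described here passed the test. Mrpl12, the stalk protein that also binds mitochondrial RNA polymerase, had 77.2, 73.0 and 76.3 CPM in young and 63.8, 63.3, 81.2 and 77.1 CPM in aged samples (log2 fold change -0.083, edgeR adjusted p = 0.706). The aged samples fell on both sides of the young ones. Mrpl58, a peptidyl-tRNA hydrolase that rescues stalled ribosomes, had a log2 change of -0.017 (adjusted p = 0.962), and Mrpl44, which carries a ribonuclease III fold, had 0.19 (adjusted p = 0.422). Mrps36, now known as a subunit of the oxoglutarate dehydrogenase complex, had 0.36 (adjusted p = 0.0686). Mrps30, which in mammals sits in the large subunit despite its name, had 0.12 (adjusted p = 0.637). Of the homologs of bacterial S18, Mrps18b had 0.26 (adjusted p = 0.325), Mrps18c 0.0020 (adjusted p = 0.996) and Mrps18a -0.18 (adjusted p = 0.684). The sign of Mrps18a was not stable, at 0.013 without aged replicate 4, and Mrps18b had -0.056 with offsets fitted on mean abundance. With promoters of 1000 bp on either side, another region was taken for Mrps18a, and that region had 0.42. Mrps16 had 0.33 (adjusted p = 0.0972) and Mrps22 had -0.21 (adjusted p = 0.430).

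Next, the subunits were compared. The median log2 fold change was 0.085 over the 49 genes named for the large subunit, of which 2 rose (4.08%) and 1 fell (2.04%). It was 0.061 over the 29 genes named for the small subunit, of which 0 rose and 0 fell. Of all protein-coding promoters, 5.02% rose and 1.49% fell. An unadjusted p under 0.05 was found for 13 large and 7 small subunit genes, and for 35% of all protein-coding promoters. DESeq2 called 4 small (13.8%) and 5 large subunit promoters (10.2%) increased, close to the 11.9% of all protein-coding promoters. The difference of the medians was 0.024 by symbol, and 0.026 with genes grouped by the subunit in which the protein resides. The difference between the subunits within a sample varied by an SD of 0.026 between samples of the same age. This is a spread of single samples and not the error of the difference in fold change, so it does not test that difference. In the median levels of single samples the same difference, aged minus young, was -0.0075. Without aged replicate 3, young replicate 1 or young replicate 2 the difference was below 0, at -0.010, -0.017 and -0.010. Above 0 were 31 of the 49 large and 21 of the 29 small subunit genes. The members were also grouped by a list of genes with a bacterial counterpart, which may not be complete. The 47 genes on the list had a median of 0.081 (0 rose and 0 fell). The 31 genes not on it had a median of 0.082, where 2 rose (6.45%) and 1 fell (3.23%). An unadjusted p under 0.05 was found for 11 of the 47 and 9 of the 31.

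The level of accessibility differed widely among the members. The mean of the ages ran from 6.46 CPM at Mrpl3, a large subunit protein, to 117 CPM at Mrpl34, another large subunit protein, and both have bacterial counterparts. Mrpl18 (96.6 CPM) and Mrpl41 (96.3 CPM) followed Mrpl34, and Mrps10 (8.13 CPM) and Mrps18a (8.63 CPM) were next to Mrpl3 at the low end. These values are not corrected for the length of the region, which was 522 to 4045 bp. Per kb of region, the members ranged from 7.83 CPM at Mrpl3 to 70.0 CPM at Mrps16, an 8.94-fold range, with a median of 23.5 CPM per kb, compared with 24.9 CPM per kb over all protein-coding promoters. The weakest promoter showed no change beyond its spread. Mrpl3 had 6.39, 5.90 and 6.41 CPM in young and 6.33, 7.45, 8.17 and 4.84 CPM in aged samples (log2 fold change 0.085, edgeR adjusted p = 0.859).

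Because the change with age followed the strength of promoters across the genome, the members were compared with promoters of similar strength. All 13037 promoters were divided into 10 deciles by mean log2 CPM. The members were spread over all deciles, with 22 of the 78 in the third and 1 in the weakest, so they sat slightly below the average strength (median log2 CPM 4.89, compared with 5.11 over all). From the weakest to the strongest decile the median log2 fold change of the other promoters rose from -0.43 to 0.35. Across the members the Spearman correlation of log2 fold change with mean log2 CPM was 0.56 over 78 genes, and it was 0.69 over the 12959 others. These are descriptions across genes that share the same 7 libraries and the same counts on both axes.

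In the stronger 5 deciles, 31 members had a median log2 fold change of 0.26 and the other promoters there had 0.26, and in the weaker 5 deciles 47 members had 0.011, compared with -0.074. All 3 members that passed the test were in the stronger deciles, where 6.45% of members were increased and 3.23% decreased. Of the other promoters there, 9.17% were increased and 0.0462% decreased, compared with 0.881% and 2.94% in the weaker deciles. After subtraction of the median of the other promoters in the same decile, the median over members was 0.027, and 44 of the 78 were above 0. When each sample was left out, this median ran from -0.0066 (without aged replicate 2) to 0.058 (without aged replicate 4). Among the other promoters weighted to the strengths of the members, 4.09% were increased, 1.04% decreased and 65.7% above 0, with a median of 0.080. At equal strength the medians of the members and of the other promoters were thus alike. With offsets fitted on mean abundance, which take the trend with strength out of the counts, the members' median was -0.029, 32 members were above 0 and 0 were increased. Mrpl53 remained decreased (log2 fold change -0.69, edgeR adjusted p = 0.0183) and Mrpl43 passed too (-0.43, adjusted p = 0.0491), which makes 2 members (2.56%) decreased, compared with 0.453% of all protein-coding promoters decreased in that fit. Of the 19 alternative fits, this was the only 1 that called Mrpl43.

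**Figure D3:**
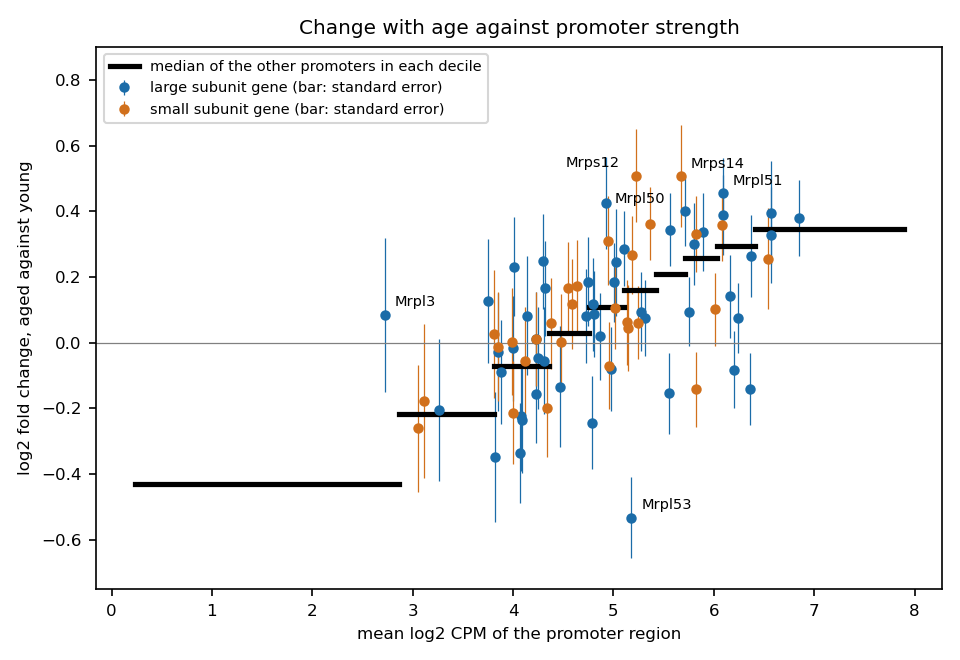
Log2 fold change (aged against young) of each member promoter against its mean log2 CPM, with standard errors, for large (blue) and small (orange) subunit genes; black lines give the median of the other protein-coding promoters in each decile of strength. The members scatter around the rising line, and Mrpl53 lies farthest below it.

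Relative to the other promoters of the same decile, the lowest log2 differences were -0.69 at Mrpl53, -0.43 at Mrpl43, -0.40 at Mrps34 and -0.38 at Mrpl12, and the highest were 0.51 at Mrpl3, 0.35 at Mrps12, 0.35 at Mrpl33 and 0.32 at Mrpl45. The standard error of Mrpl3 was the largest of the 78. The increases of Mrpl51 and Mrpl50 were smaller on this scale, at 0.16 and 0.19.

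To see how the samples contributed, the deviation of each region's log2 CPM from its mean over the 7 samples was taken and the median over the members was computed per sample. It was -0.0080, -0.062 and -0.043 in young and 0.087, -0.0029, 0.13 and -0.076 in aged samples. The aged samples were thus on either side of the young ones, with aged replicate 4 the lowest of all. The young mean was -0.038 ± 0.027 (SD, n = 3) and the aged mean 0.034 ± 0.091 (SD, n = 4). Over the other protein-coding promoters the aged values were 0.083, -0.031, 0.091 and 0.10, so aged replicate 4 was high there and low over the members. Against promoters of the same decile, aged replicate 4 had -0.12 and the other samples lay between -0.029 and 0.051. Without aged replicate 4 the median log2 fold change of the members was 0.11, and that of the other promoters was 0.13. In that fit 2 members passed the test upward, Mrpl30 and Mrpl51, and 1 downward, Mrpl53. Of all protein-coding promoters, 4.63% were increased and 2.28% decreased in the same fit.

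**Figure D4:**
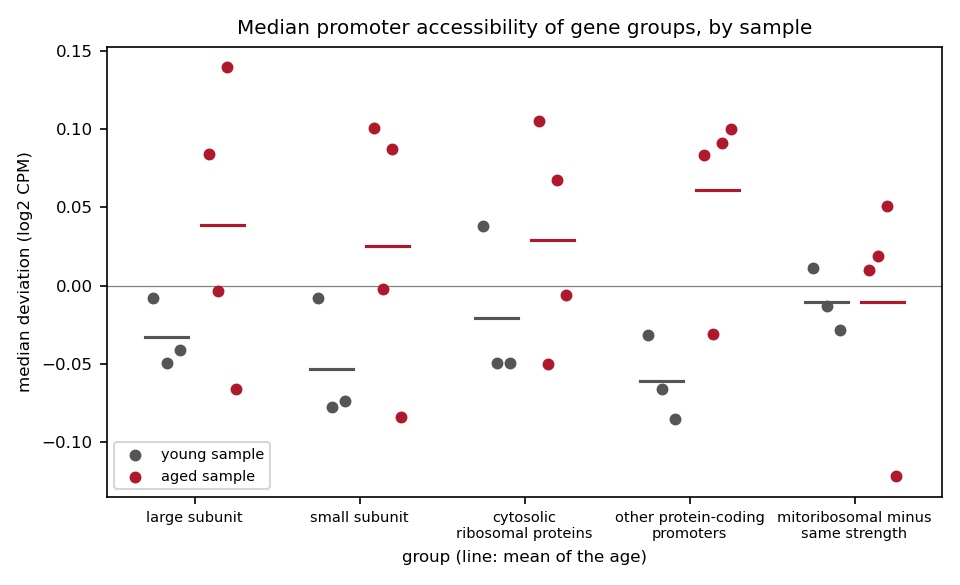
Median deviation of log2 CPM from each region's mean over the 7 samples, for groups of promoters (large subunit, small subunit, cytosolic ribosomal proteins, other protein-coding genes) and for the members minus promoters of the same strength; points are samples and lines the mean of an age. Young and aged points overlap in the subunits, and 1 aged sample lies at -0.12 in the last group.

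Many mitoribosomal genes sit head to head with another gene. The promoter region of 33 of the 78 members (42.3%) was also the promoter of another protein-coding gene, compared with 2679 of 13037 promoters overall (20.5%) and 20.6% of other promoters of the members' strengths. The partners, of which a few are named here by choice, included Twnk, the mitochondrial DNA helicase, beside Mrpl43, Ndufb5 of complex I beside Mrpl47, and Ptcd2 beside Mrps27. Others were Psma2 of the proteasome beside Mrpl32, the chaperonin subunit gene Tcp1 beside Mrpl18 and Fau, which encodes a protein of the cytosolic ribosome, beside Mrpl49. At such a promoter the accessibility cannot be assigned to either gene. The 33 shared member promoters had a median log2 fold change of 0.10, where 2 rose (6.06%) and 0 fell, and the 45 others had 0.081, where 0 rose and 1 fell (2.22%). Over all genes shared promoters had a median of 0.19, with 5.94% up and 0.747% down, and the others 0.11, with 4.78% up and 1.68% down. Mrps11 and Mrpl46, whose common region serves both subunits, had a fitted log2 value of 0.011 (adjusted p = 0.972).

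Sequence features that the choice of genes did not use were then counted in windows from 250 bases before to 50 bases after the RefSeq start, which were at hand for 68 of the members and for 9498 genes in all. The NRF1 letters GCGCANGCG, searched on both strands as all motifs here, were in 15 member windows (22.1%), compared with 14.8% of all windows. The ETS letters CCGGAAG were in 24 (35.3%, compared with 19.2%) and the YY1 letters AANATGGCG in 11 (16.2%, compared with 5.70%). No ETS match overlapped a YY1 match. At least 1 of these 3 motifs was in 40 member windows (58.8%), compared with 34.4% of all. The Sp/KLF letters GGGCGGG were in 28 (41.2%, compared with 51.2%), the CCAAT box in 27 (39.7%, compared with 38.8%) and the TATA letters TATAAA in 4 (5.88%, compared with 6.24%). Among other promoters of the members' strengths the shares were 15.6% for NRF1, 21.9% for ETS and 6.22% for YY1. A match is a run of letters and not an occupied site.

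**Figure D5:**
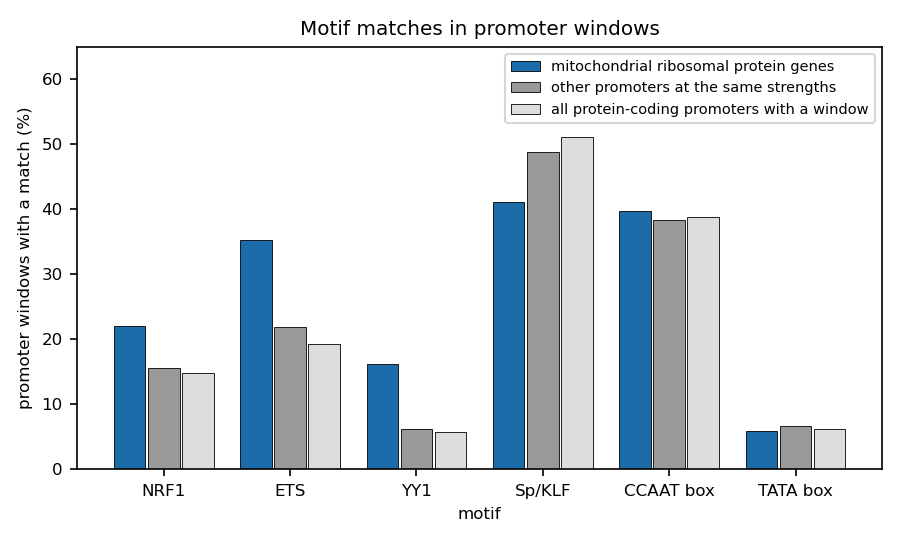
Percent of promoter windows with a match to each motif, for the members, for other promoters at the same strengths and for all protein-coding promoters with a window (bars from 0). The members' bars are the highest for NRF1, ETS, YY1 and, by little, CCAAT, and the lowest for Sp/KLF and, by little, TATA.

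The change with age was compared between members with and without these motifs, as a description without adjustment for strength. With and without the letters, the members' median log2 CPM was 4.92 and 4.80 (NRF1), 4.86 and 4.84 (ETS), and 4.23 and 4.94 (YY1). It was 5.12 and 4.61 (Sp/KLF), 4.80 and 4.87 (CCAAT), and 4.11 and 4.89 (TATA). The median log2 fold change was 0.19 with and 0.061 without the NRF1 letters, 0.053 with and 0.078 without the ETS letters, and 0.045 with and 0.081 without the YY1 letters. Over all genes these medians were 0.16 and 0.14 for NRF1, 0.12 and 0.15 for ETS, and 0.14 and 0.14 for YY1. For the CCAAT box the medians were 0.13 with and 0.011 without it among the members, and 0.21 and 0.10 over all genes. The members had 0.078 with and 0.068 without the Sp/KLF letters, and 0.0075 with and 0.081 without the TATA letters, compared with 0.16 and 0.12, and 0.12 and 0.15, over all genes. Mrpl51 and Mrpl53, which changed in opposite directions, both hold ETS letters, and Mrpl50 holds none of the NRF1, ETS and YY1 letters.

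The other genes of mitochondrial translation were looked up by lists chosen with earlier results of these data known. Of 42 such genes, all with a promoter region, 2 rose (4.76%) and 0 fell, compared with the 5.02% and 1.49% of all protein-coding promoters, with a median log2 fold change of 0.061. These were Mtrf1l, a translation release factor (log2 fold change 0.58, edgeR adjusted p = 0.0370), and Tfb1m, which methylates the rRNA of the small subunit (0.57, adjusted p = 0.0291). With offsets fitted on mean abundance neither passed, with 0.23 (adjusted p = 0.332) at Mtrf1l and 0.29 (adjusted p = 0.219) at Tfb1m. Of the 5 ribosomal proteins with other symbols, Dap3 had 0.34 (adjusted p = 0.122), Aurkaip1 0.19, Ptcd3 0.18, Gadd45gip1 -0.066 and Chchd1 -0.11. None of them passed the test, while 1 had an unadjusted p under 0.05, compared with 35% of all protein-coding promoters. With offsets fitted on mean abundance, Dap3 had 0.056 (adjusted p = 0.831). Among 11 translation factors the elongation factors Tufm, Tsfm and Gfm1 had 0.25, -0.51 (adjusted p = 0.129) and 0.019, and the initiation factors Mtif2 and Mtif3 had 0.099 and -0.23. Of 20 genes of assembly and rRNA modification, the helicase Ddx28 had -0.50 (adjusted p = 0.127). Among 6 genes of mitochondrial transcription and mRNA handling, Tfb2m, which opens the promoters of mitochondrial DNA, had 0.41 (adjusted p = 0.0506). With offsets fitted on mean abundance, Tfb2m had 0.15 (adjusted p = 0.462).

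The 8 genes of nuclear regulators looked up, Nrf1, Gabpa, Gabpb1, Yy1, Esrra, Ppargc1a, Ppargc1b and Pprc1, had log2 fold changes from 0.11 to 0.34, and none passed the test while 3 had an unadjusted p under 0.05 (35% of all protein-coding promoters did). They are strong promoters, with a median log2 CPM of 6.32, and relative to other promoters of the same decile their median was -0.071 and 1 of the 8 was above 0. The proteins of the cytosolic ribosome were set beside them. Of their 98 genes 88 had a promoter region, 1 rose and 1 fell (1.14% each, compared with 5.02% and 1.49% of all protein-coding promoters), and their median was 0.079 on the log2 fold change scale, where the members had 0.081. Relative to other promoters of the same decile their median was -0.063, with 32 of the 88 above 0, and that of the members 0.027, a difference that was not tested.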

How the data were processed

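ATAC-seq was performed on 3 young and 4 aged liver samples, the latter from 3 animals. The authors deposited raw counts per consensus region. Per the study's methods and the submitters' processing notes, reads were trimmed (cutadapt 1.13), aligned to GRCm38 (Bowtie2 2.4.1) and filtered for mapping quality, proper pairs, PCR duplicates and mitochondrial reads, peaks were called per library (MACS2 2.2.7), and reads were counted (featureCounts) in regions found in at least 2 samples. A region weak in most samples may therefore be missing.

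From the counts, aged and young samples were compared across all 55680 regions with the quasi-likelihood test of edgeR 4.0.16 (R 4.3.3), TMM normalization, no covariate besides age, and p-values adjusted over all regions by Benjamini-Hochberg. CPM used the TMM-scaled library sizes, and log2 CPM a prior count of 2. The number of columns without a sample was 0. The study's own tool, DESeq2 (here 1.42.0), was run as an alternative. Others were total counts, loess offsets (span 0.3) on mean abundance and GC content, filterByExpr, each sample left out, each of 6 pairs of aged samples summed, a replicate block, other promoter definitions and other thresholds. The fit was tested on simulated data. Regions were checked for near-identical copies with minimap2 2.31-r1302 (at least 80% of the region at 95% identity), and 0 of the 78 members had one.

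The members and gene lists were chosen with earlier results of these data known. Genes named are those with an adjusted p under 0.05, the 5 highest and 5 lowest log2 fold changes, the 3 highest and 3 lowest CPM, members picked for their roles and, of the other genes of mitochondrial translation, the 5 with the smallest p and picked factors. Other members and partner genes were named after their values were seen. Promoter sequences came from RefSeq (GRCm38.p6), matched by symbol for 69 of the 78 members, and the window of 1 of these was left out because it lay outside the promoter region.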

Additional observations from a re-analysis of the deposited data

Results flagged for a closer look

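In 45 sets of 4 aged values (named genes and group medians), the sample farthest out was set against the others, and 3 had a gap to the nearest sample larger, relative to the range of the 4, than Dixon's limit, where chance gives about 1 in 20. At the promoter of Mrpl50, aged replicate 2 had a log2 CPM of 5.77, whereas the other aged samples lay between 5.95 and 5.98 and the young samples between 5.46 and 5.58. At Mrps36, aged replicate 4 had 5.66, the other aged samples 5.49 to 5.51 and the young samples 5.11 to 5.29. In both, the sample was still above every young one. The median deviation over protein-coding promoters that are no members was -0.031 in aged replicate 2, compared with 0.083 to 0.10 in the other aged and -0.085 to -0.032 in the young samples.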

How the results depend on the processing

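The cause of each change below was not tested. The number of mitoribosomal promoters with increased accessibility, 2 with all samples, was 9 with DESeq2, 11 with offsets on GC content, 0 with offsets on mean abundance, 0 with total counts, 0 at a threshold of 0.01 and 11 at 0.1. The share of all protein-coding promoters called increased moved with it, from 5.02% to 11.9% with DESeq2, 17.1% with GC offsets, 0.107% with abundance offsets and 1.67% with total counts, and 14.4% at a threshold of 0.1. With aged samples summed in pairs it was 0 for aged 1 and 3, 1 for aged 1 and 4, 1 for aged 2 and 3, 6 for aged 2 and 4 and 0 for aged 3 and 4, where the share of all promoters was 0.591%, 3.03%, 2.41%, 9.14% and 1.99%. It was 0 to 3 when each sample was left out, with 0 without aged replicate 1, aged replicate 3, young replicate 1 or young replicate 2, while the share of all promoters ran from 0.115% to 6.65%. The number with decreased accessibility, 1 with all samples, was 2 with offsets on mean abundance (0.453% of all promoters), 0 at a threshold of 0.01, and 0 to 1 when each sample was left out, with 0 without those same samples. The median log2 fold change of the members, 0.081, was -0.029 with offsets on mean abundance and -0.036 with total counts, and that of the other promoters, 0.13, was -0.029 and 0.012. When each sample was left out, the members' median ran from 0.053 (without young replicate 2) to 0.11 (without aged replicate 4). That of the other promoters then ran from 0.12 to 0.15. The large minus small subunit difference ran from -0.017 to 0.039 when each sample was left out. Same-numbered samples deviated together by correlations of only -0.12 to 0.056, so the numbers do not pair them. In a fit with a replicate block, 2 members were increased (Mrpl51 and Mrps12) and 1 decreased, with a median of 0.11, compared with 3.25% and 2.37% of all promoters and a median of 0.12 for the others. Among 38 named genes, the sign changed for at most 5 in any alternative. The smallest library held 4474652 counts and a member had as few as 34 counts in a library, which limits what can be detected at weak promoters.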
